A study of Papaver somniferum with 12 samples.

Results

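The leaf transcriptome of opium poppy contained a group of 150 unigenes whose levels were similar at seedling, jointing (stem elongation) and bolting (first visible bud) and lower in every library of florescence (first bloom). A unigene is a non-redundant sequence that the authors derived from long reads of pooled RNA of the same cultivar. The 150 were selected from 61856 unigenes by their measured values. Libraries were first scaled by the median of their ratios to a common reference, taken over the 43618 unigenes above 0 in all 12 libraries. The selection then required a mean of 5 to 1000 RPKM over the 12 libraries, as deposited. It also required the highest florescence value to lie below the lowest value of the 9 earlier libraries, and the 3 earlier phase means of log2(scaled RPKM + 1) to lie within 0.5 of each other. RPKM is the number of reads mapped to a sequence, divided by its length and by the number of mapped reads in the library. Of 14941 unigenes in the range of means, 2172 met the condition on florescence and 9204 the condition on the earlier phases. Both were met by 1476, and the 150 with the largest difference between the florescence mean and the lowest earlier phase mean were kept.

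The plants were opium poppy (Papaver somniferum), of the original cultivar B1 according to the methods of the study, and every library was made from leaf. No treatment is named. The labels give 3 libraries for each of seedling, jointing, bolting and florescence, and the study describes them as independent samples. Age and phase cannot be told apart in this design, and neither can the calendar date of sampling. Among its tissues the study defines leaf as the top leaf, so the position of the sampled leaf may differ between phases. Leaf position and phase cannot be told apart either. The total RPKM per library lay between 998634 and 1175897, and the scaling factor ran from 0.830 to 0.901 in seedling libraries, from 1.11 to 1.28 in jointing libraries, from 0.844 to 0.947 in bolting libraries and from 1.14 to 1.23 in florescence libraries. The depth in reads is unknown for single values, and no counting interval was computed. The study lists lower RNA integrity for the florescence samples as a group than for nearly all earlier samples, and the part of integrity in the differences was not tested. Bolting replicate 1 stood apart from its phase in the 150 unigenes. Jointing replicate 3 was often low among all unigenes in the range of means as well, and the values of both are given with the results. Without bolting replicate 1 the median difference at florescence was -1.40 on the log2 scale, and without jointing replicate 3 it was -1.43, against -1.38 with all libraries.

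A leaf of an annual plant changes its work as the plant turns from growth to reproduction. Young leaves build the photosynthetic apparatus, whereas leaves of a flowering plant begin to age and export nitrogen and other nutrients to flowers and seeds. In opium poppy the leaf also takes part in the metabolism of benzylisoquinoline alkaloids, the compounds for which the plant is grown, which accumulate in the latex. The table names its unigenes only by identifier. Compared as text, 0 of the 61856 identifiers were found among the genes annotated on assembly ASM357369v1. This does not show whether their sequences are annotated there. The study describes a functional annotation of its sequences, which was not used here. The functions and sequences of the 150 were therefore not analysed, and the labelled tissue was not checked against marker genes.

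The group was reduced at florescence rather than absent. Mean scaled RPKM at florescence ranged from 0.377 to 359.6 among the 150 unigenes, with a median of 8.19, against 6.83 to 932.8 with a median of 31.1 over the 9 earlier libraries. None of the 150 was at 0 in any library. The level left at florescence was between 2.09% and 43.3% of the mean of the earlier libraries, with a median of 30.9% and quartiles of 22.5% and 36.6%. Less than 10% was left for 12 unigenes and less than 25% for 48. These values chose the members and are given as a description. In leaf tissue as a whole, fewer cells of a type and less RNA per cell cannot be told apart.

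**Figure D1:**
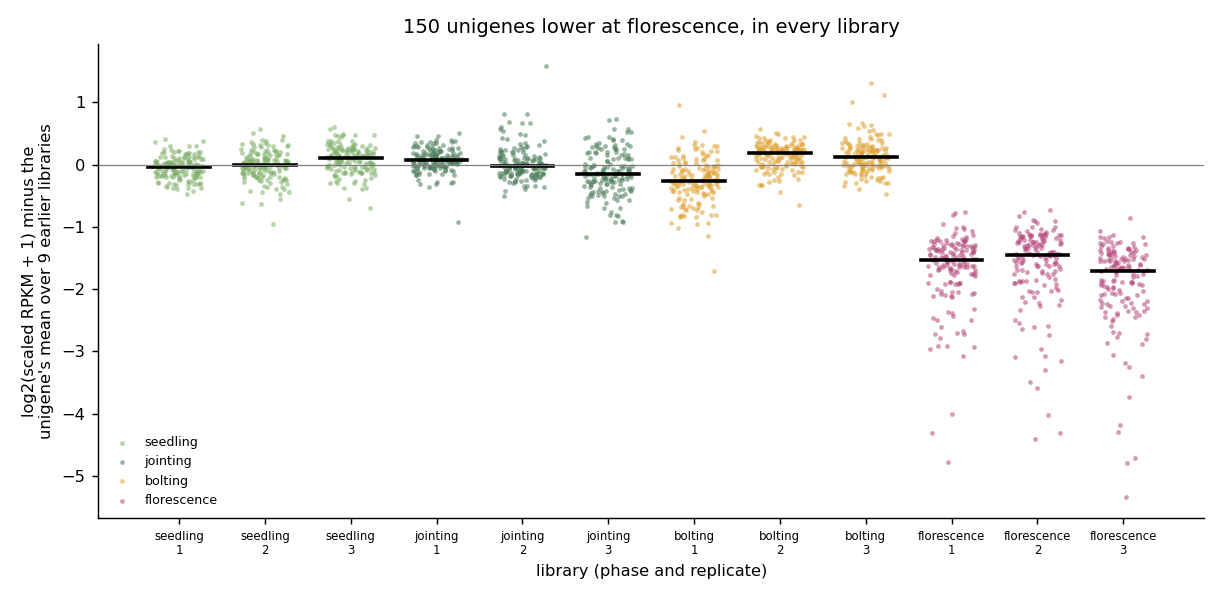
Each point is 1 of the 150 unigenes in 1 library (x axis), plotted as log2(scaled RPKM + 1) minus the mean of that unigene over the 9 earlier libraries (y axis); black bars are medians over the 150. The florescence medians are -1.54, -1.45 and -1.71, and the earlier medians lie between -0.26 in bolting replicate 1 and 0.18 in bolting replicate 2.

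The size of the fall declined steeply over the first ranks and slowly thereafter. The difference between the florescence mean and the lowest earlier phase mean, on the log2(scaled RPKM + 1) scale, was -4.28 for the first of the 150, -2.71 for the unigene ranked 10, -1.59 for that ranked 50 and -1.27 for that ranked 100. The median over the 150 was -1.38. The last unigenes inside the group were PB.31004.7 at -1.10 and PB.53144.2 at -1.09, and the first outside were PB.48255.5 at -1.09 and PB.53983.2 at -1.09. The values on either side of the limit were nearly equal.

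PB.60243.1 had the largest difference. Its scaled RPKM was 5.06, 13.8 and 3.13 in the florescence libraries, against 50.04 to 242.7 in the earlier libraries, with a median of 183.7. The florescence libraries stood well below all others, but the lowest earlier value, 50.04, was that of bolting replicate 1, whereas bolting replicates 2 and 3 were at 217.5 and 242.7.

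PB.40696.2 was the most abundant of the 8 unigenes with the largest differences and varied little at florescence. It had 23.1, 21.6 and 25.6 scaled RPKM at florescence, against 274.2 to 671.7 with a median of 532.6 earlier. The 3 florescence values were close to each other, while the earlier values were more widely spread and were again lowest in bolting replicate 1.

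PB.556.10 retained the smallest share of its earlier level, 2.09%. Its scaled RPKM was 1.198, 0.770 and 0.349 at florescence, against 15.0 to 69.9 with a median of 34.1 in the earlier libraries. Bolting replicate 1 held the lowest earlier value and bolting replicate 3 the highest, so the spread between bolting libraries was wide in this unigene too.

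PB.58184.2 had 7.18, 2.90 and 1.29 scaled RPKM at florescence, against 34.7 to 85.6 with a median of 62.0 earlier. PB.47904.1 had 8.58, 4.25 and 2.23 at florescence, against 43.5 to 79.2 with a median of 60.5 earlier. In both the florescence replicates differed several-fold among themselves, with replicate 1 highest and replicate 3 lowest, yet no florescence library came near the lowest earlier one. The lowest earlier library was bolting replicate 1 for the first and jointing replicate 3 for the second.

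PB.32045.4 and PB.58314.1 were more even at florescence. PB.32045.4 had 13.001, 12.3 and 7.88 scaled RPKM at florescence, against 101.3 to 140.3 with a median of 115.1 earlier. PB.58314.1 had 8.56, 6.25 and 5.37 at florescence, against 44.1 to 76.3 with a median of 55.9 earlier. Its lowest earlier value was again that of bolting replicate 1, while bolting replicates 2 and 3 were at 73.9 and 76.3. PB.54568.1 had 2.85, 2.77 and 2.52 at florescence, against 22.003 to 37.3 with a median of 28.3 earlier. This last unigene had nearly equal florescence values, and its bolting replicate 1, at 31.0, was the highest bolting library.

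**Figure D2:**
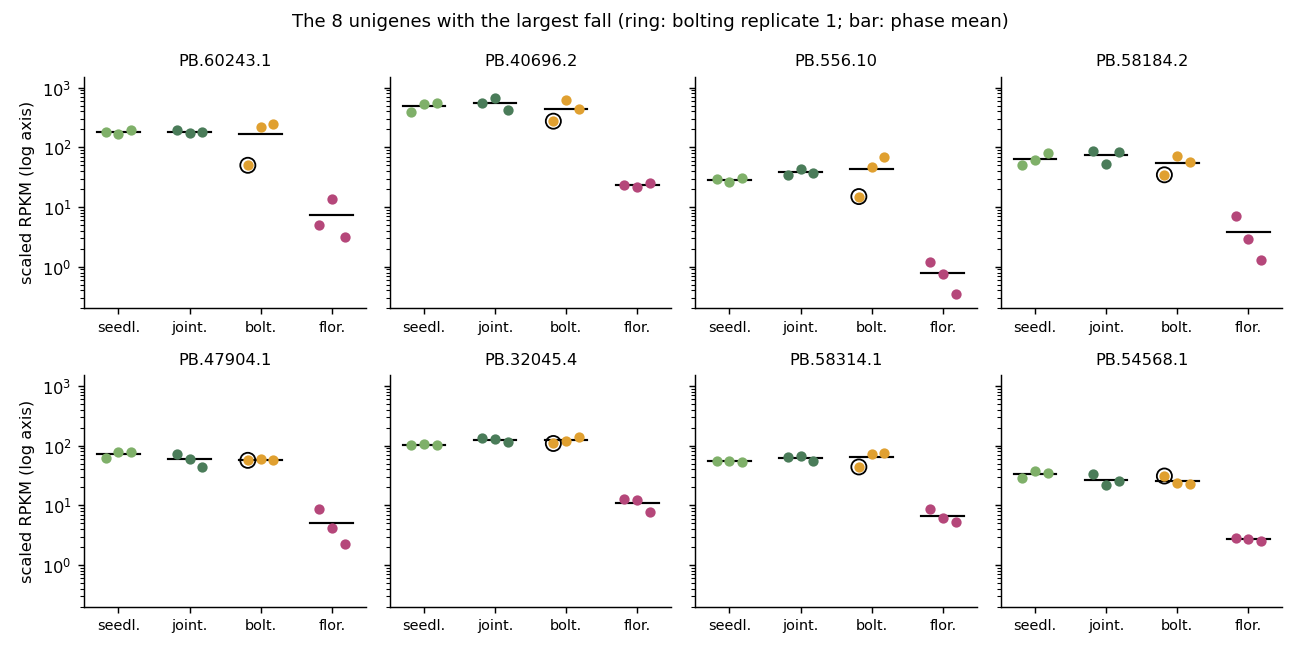
Scaled RPKM on a log axis (y) at the 4 phases (x) for the 8 unigenes with the largest difference, 1 panel each; points are libraries, bars are phase means and the ring marks bolting replicate 1. Every florescence point lies below every earlier point, as the selection required. In PB.60243.1 the ringed library at 50.04 lies between the other bolting libraries and the florescence libraries at 3.13 to 13.8.

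The 3 most abundant members kept 29.0% to 40.3% of their earlier level. PB.55972.1 had 242.6, 362.3 and 207.35 scaled RPKM at florescence, against 688.7 to 1254 with a median of 918.1 earlier, so that 29.0% was left. PB.60488.1 had 282.5, 296.2 and 216.8 at florescence, against 693.3 to 1095 with a median of 895.7 earlier, and 29.6% was left. PB.59102.5 had 346.3, 382.0 and 309.5 at florescence, against 630.3 to 1005 with a median of 876.8 earlier, and 40.3% was left. The 3 unigenes ranked 45, 48 and 142 of the 150 by their difference. Their groups of libraries did not overlap, which the selection required of every member.

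The median share left at florescence lay between 25.2% and 34.5% in 4 classes of abundance. The share had a median of 25.2% in the 11 unigenes with an earlier mean under 10 scaled RPKM, 30.4% in 61 unigenes at 10 to 30, 29.2% in 38 unigenes at 30 to 100 and 34.5% in 40 unigenes above 100. The share ranged from 9.09% to 33.0% in the lowest class, from 3.72% to 42.5% and from 2.09% to 42.4% in the middle classes, and from 4.12% to 43.3% in the highest. The 1 RPKM added before the logarithm makes the selection stricter on the share left at low abundance, so the rule sets part of the difference between classes.

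**Figure D3:**
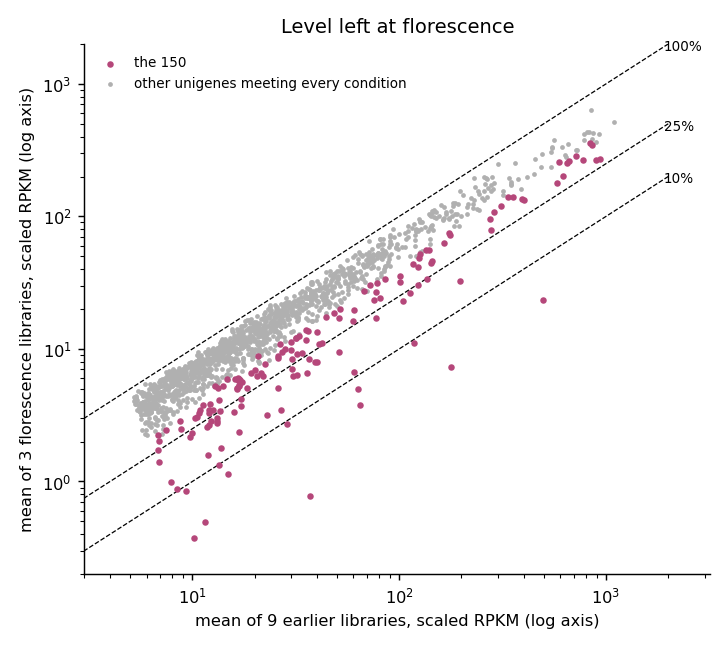
Mean scaled RPKM over the 3 florescence libraries (y, log axis) against the mean over the 9 earlier libraries (x, log axis) for the 150 unigenes and for the other 1326 unigenes that met every condition; dashed lines mark 100%, 25% and 10% of the earlier level. The 150 lie between 2.09% and 43.3% and border directly on the other unigenes.

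Some members came close to the limit of separation. The distance between the lowest earlier and the highest florescence library was 0.90 at the median on the log2 scale and above 1 for 55 of the 150. It was below 0.1 for PB.50359.1, PB.57723.1 and PB.48069.1, which were chosen after their values were seen. PB.57723.1 had 71.9, 182.2 and 102.7 scaled RPKM at florescence, against 188.2 in bolting replicate 1 and 247.2 to 428.6 in the other earlier libraries. PB.48069.1 had 8.91, 4.47 and 4.46 scaled RPKM at florescence, against 8.96 to 31.9 earlier, so its groups barely parted. At the other end, PB.60603.1 and PB.59218.1, also chosen after their values were seen, were the 2 members with all florescence libraries under 1 scaled RPKM. PB.60603.1 had 0.520, 0.883 and 0.0893 at florescence, against 5.42 to 27.3 earlier, and its lowest deposited value, 0.11 RPKM, was the lowest of any member.

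Before florescence the members were flat by selection, without a common order of the phases. The highest earlier mean was at seedling for 53 unigenes, at jointing for 47 and at bolting for 50. The lowest was at seedling for 47, at jointing for 63 and at bolting for 40, so this count was less even. The median difference was -0.06 for jointing minus seedling and -0.01 for bolting minus seedling on the log2 scale, with extremes of -0.49 and 0.49. The steadiest member over the 9 earlier libraries was PB.18515.1, picked once its values were known. It had 8.69, 8.73 and 6.32 scaled RPKM at florescence, against 36.6 to 44.5 earlier with an SD of 0.08 on the log2 scale.

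Summed over the 150 unigenes, the seedling libraries held 17051 ± 871 scaled RPKM, the jointing libraries 16349 ± 1486, the bolting libraries 17587 ± 2955 and the florescence libraries 5596 ± 619 (SD, n = 3 each). As a share of the deposited RPKM of a library, the group took 1.29% ± 0.0548 in seedling leaf, 1.74% ± 0.0794 in jointing leaf, 1.39% ± 0.319 in bolting leaf and 0.637% ± 0.0432 in florescence leaf. The bolting libraries were the most divided, with 1.02% in replicate 1 and 1.58% and 1.56% in replicates 2 and 3.

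Because the florescence values chose the members, the separation was examined in libraries that had no part in the choice. The rule was applied again without 1 florescence library, which gave another 150 unigenes, and the omitted library was then read. The scaling factors were those of all 12 libraries, and the 9 earlier libraries took part in each choice. Without florescence replicate 1, 145 of 150 had the omitted library below all 9 earlier libraries, against 23.4% of the unigenes with a mean of 5 to 1000 RPKM. Without replicate 2 the count was 146 of 150, against 20.7%, and without replicate 3 it was 150 of 150, against 25.5%. The omitted library lay below the lowest earlier phase mean by a median log2 difference of -1.37, -1.31 and -1.54 in these 3 runs. In the 2 libraries used for the choice the median was -1.48, -1.49 and -1.33. The omitted value was at least 1 below for 127, 117 and 142 of the 150 unigenes, against 4.12%, 4.08% and 5.66% of all unigenes in the range of means. Each florescence replicate was thus low in unigenes that the other replicates had chosen. The lists shared 134, 137 and 135 unigenes with the 150.

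The florescence libraries were not alike in depth of the fall. Florescence replicate 3 was the lowest of the 3 for 91 of the 150 unigenes, or 60.7%, whereas it was the lowest for 39.5% of all unigenes in the range of means. In 32 members it was more than 0.5 below the mean of the other florescence libraries on the log2 scale, against 4.62% of the unigenes in that range. Replicate 2 was the highest for 84. The median SD between replicates on the log2(scaled RPKM + 1) scale was 0.23 at florescence for the members and 0.13 for all unigenes in that range, and the values at bolting were 0.29 and 0.15. At seedling they were 0.14 and 0.12, and at jointing 0.20 and 0.19.

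Bolting replicate 1 departed from its phase in the direction of florescence. It was the lowest of the 9 earlier libraries for 62 of the 150 unigenes, against 17.2% of all unigenes in the range of means. It lay below the mean of bolting replicates 2 and 3 by a median of -0.40 on the log2 scale, while the same difference over all unigenes in the range was 0.03. More than 0.5 below were 58 members, against 6.71% of the unigenes in the range, and more than 1 below were 12. In 25 members bolting replicate 1 was above its phase mates instead, so the shift was not shared by all. The difference of bolting replicate 1 from its phase mates correlated with the florescence mean minus the mean of seedling and jointing. Pearson r was 0.38 across the 150 members and 0.32 across all unigenes in the range, so this relation was not particular to the members. Jointing replicate 3 was more than 0.5 below its phase mates in 30 members, against 15.7% of the unigenes in the range. It was the lowest of the 9 earlier libraries for 45 of the 150, against 34.7%, so being lowest was not particular to the members in this library.

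The same departure was present when bolting replicate 1 had no part in the choice. In the 150 unigenes chosen without it, the library was below replicates 2 and 3 by a median of -0.46, with quartiles of -0.69 and -0.12, and 64 unigenes were more than 0.5 below, against 6.87% of the unigenes in the range. It was above the highest florescence library for 149 of these 150, against 42% of the unigenes in the range, so its level was intermediate. Jointing replicate 3, omitted in the same way, was below its phase mates by a median of -0.26, with 44 unigenes more than 0.5 below, against 16.2%. For the other 7 earlier libraries the median ran from -0.08 to 0.21, and at most 9 of the 150 unigenes were more than 0.5 below. The counts were 3, 9 and 8 for seedling replicates 1, 2 and 3, against 2.66%, 2.19% and 2.57% of the unigenes in the range. They were 0 and 3 for jointing replicates 1 and 2, against 2.73% and 3.4%, and 2 each for bolting replicates 2 and 3, against 3.69% and 4.25%. Of these 7 libraries, only seedling replicates 2 and 3 exceeded the share in the range. The phase mates took part in each of these choices and the omitted library did not. Of the unigenes chosen without bolting replicate 1, 119 were among the 150.

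Each of the other omitted earlier libraries also lay above the highest florescence library in nearly all of the unigenes chosen without it. This held for 150, 150 and 145 of 150 unigenes for seedling replicates 1, 2 and 3, against 43.5%, 46.6% and 46.5% of the unigenes in the range. For jointing replicates 1, 2 and 3 it held for 150, 149 and 143, against 35.8%, 35.3% and 36.4%. For bolting replicates 2 and 3 it held for 149 and 150, against 40.8% and 38.6%. Jointing replicate 3 thus had the most exceptions, with 7.

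**Figure D4:**
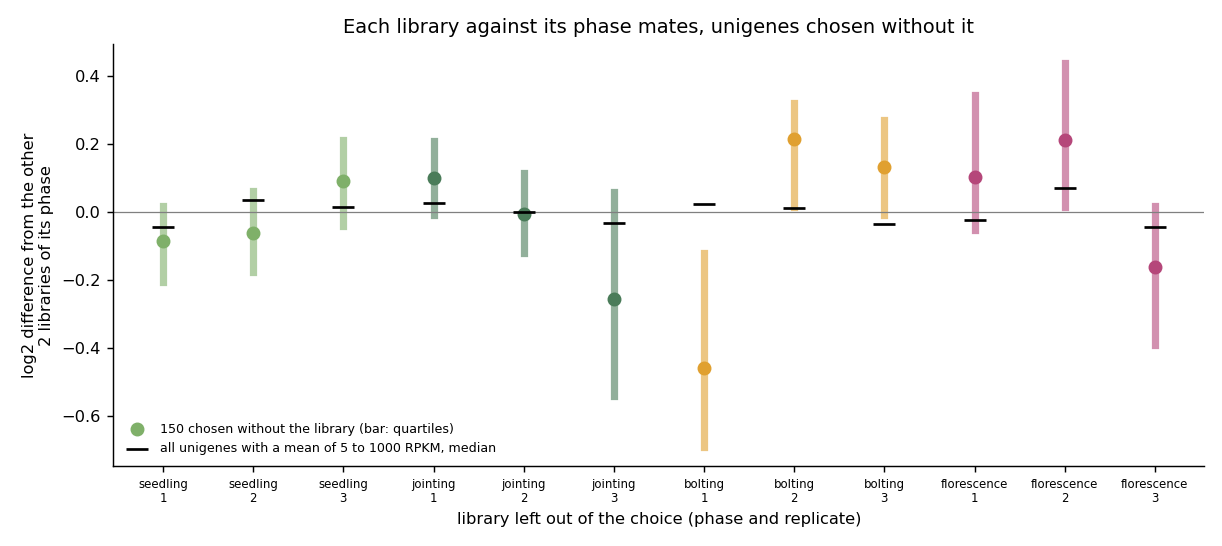
For each library (x), the log2(scaled RPKM + 1) difference from the mean of the other 2 libraries of its phase (y) in the 150 unigenes chosen without that library; points are medians, coloured bars quartiles, and black dashes the median over all unigenes with a mean of 5 to 1000 RPKM. Bolting replicate 1 at -0.46 and jointing replicate 3 at -0.26 are the lowest points, and the black dashes stay between -0.04 and 0.07.

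In the fit across all phases with limma, 688 of 31242 unigenes tested were lower at florescence than at each of seedling, jointing and bolting, or 2.2%, and 301 were higher, or 0.963%. A call required, in all 3 contrasts, a log2(scaled RPKM + 1) difference of 1 or more and a p below 0.05 after Benjamini-Hochberg adjustment. All 150 members were among the 688, and the selection used the same contrasts. Their median differences were -1.61 against seedling, -1.55 against jointing and -1.59 against bolting. The medians over all tested unigenes were -0.01, 0.00 and -0.01, but the scaling itself sets these medians, so they are no separate background. The 3 contrasts share the florescence libraries.

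The count depended on scaling. In the values as deposited, the median of all tested unigenes at florescence was higher by 0.33 against seedling and 0.29 against bolting, and by 0.01 against jointing. Accordingly 467 unigenes, or 1.49%, were then called lower and 642 higher. Of the 150 members, 91 were called lower in the deposited values, with median differences of -1.19, -1.56 and -1.23 against seedling, jointing and bolting. The florescence libraries lay below all earlier libraries for 144 of the 150 in the deposited values, against 7.08% of the unigenes in the range of means, compared with 14.5% after scaling. The selection had required this separation in the scaled values of the same libraries, so the count of 144 is a description.

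The identifiers carry a property that the rule did not use. Each consists of a PB number, unique in the table, and a second number, and the sources used here do not state how they were assigned. Of the 150 members, 56 had a PB number in the highest of 10 equal ranges, 55671 to 61856. This range held 37.3% of the members, 20.1% of the 1476 unigenes that met every condition and 19% of all unigenes with a mean of 5 to 1000 RPKM. Both larger sets contain the 150. Without them, the range held 18.1% of the 1326 other unigenes that met every condition and 18.9% of the 14791 others with such a mean. It held 35.8% of the 377 others with such a mean that were called lower at florescence in the limma fit. Of the 190 called higher it held 27.4%, so a raised share was not particular to the 150. Among the members ranked 1 to 50 there were 22 such unigenes, among those ranked 51 to 100 there were 18, and among those ranked 101 to 150 there were 16. The smallest RPKM above 0 of unigenes at 0 in at least 5 libraries had a median of 0.11 in this range and of 0.03 in the others. As 1 read is worth more RPKM in a short sequence than in a long one, this value moves with length, and the part of sequence length in the differences was not tested. The members in this range had a median of 35.99 scaled RPKM earlier and 29.8% left at florescence, and the other 94 had 30.3 scaled RPKM and 31.9%. The second number was 1 for 43.3% of the members and 40.3% of the unigenes in the range of means.

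**Figure D5:**
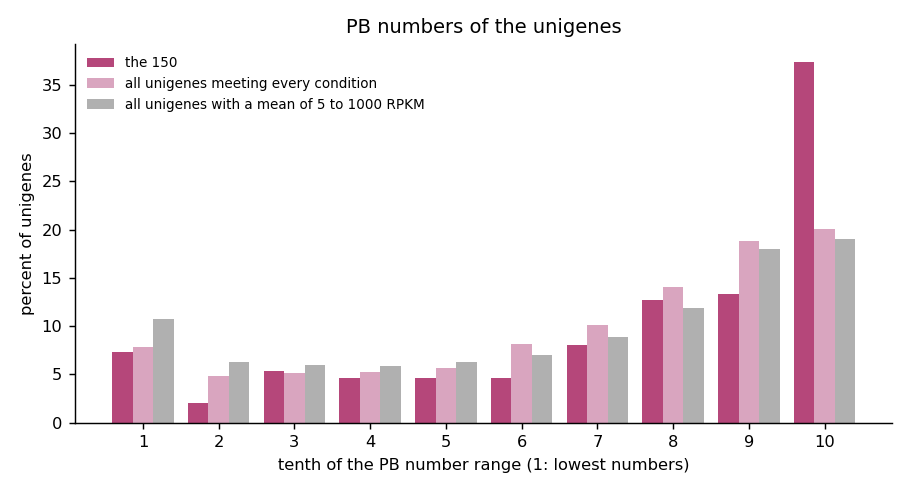
Percent of unigenes (y) in each of 10 equal ranges of the PB number (x) for the 150 members, for all 1476 unigenes that met every condition and for all 14941 unigenes with a mean of 5 to 1000 RPKM. The highest range holds 37.3% of the members, against 20.1% and 19% of the larger sets, both of which contain the members.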

How the data were processed

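Leaf RNA of 12 libraries, 3 for each phase, was sequenced by the authors from both fragment ends on an Illumina instrument. The authors mapped the short reads with HISAT2 2.05 to unigenes built from long reads, estimated expression with RSEM and deposited RPKM values with at most 2 decimals. In the methods the unit is called FPKM. RSEM divides reads between near-identical sequences by estimation, so unigenes with close relatives are uncertain. Columns were matched to samples by the library code in the descriptions, and no per-sample column was left unmatched.

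Here, libraries were scaled by median of ratios, and log2(scaled RPKM + 1) of 31242 unigenes averaging 1 RPKM or more was fitted with limma 3.58.1 (mean-variance trend) in R 4.3.3, with phase as the only factor. The fit was tested on simulated data. Each p-value sets a difference against the spread between libraries of the same phase, estimated over the 4 phases together. DESeq, which the authors used, was not run because the values are no counts. The members and all lists were chosen with earlier results of these data known. The unigenes named are the 8 with the largest difference used by the selection, the 3 with the highest earlier mean and 2 on each side of the limit; others are said to be chosen after their values were seen. Planned counts of other unigenes with a member's PB number were void, since each PB number occurs once. Alternatives were other scalings, pseudocounts, filters, limits of the rule, a replicate block and each library left out.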

Additional observations from a re-analysis of the deposited data

How the results depend on the processing

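The number of unigenes called lower at florescence was 401 with equal totals, 1123 with pseudocount 0.1 and 429 with a minimum mean of 10 RPKM, where 9654 unigenes were tested. The number called higher was 642 as deposited, 914 with equal totals and 128 with a minimum mean of 10 RPKM. The median difference of the 150 unigenes, -1.38, was -1.10 as deposited and -0.97 with equal totals. Both settings leave out the median-of-ratios factors, which lay above 1 at florescence and below 1 at seedling and bolting. The 1476 unigenes that met the rule became 547 as deposited (78 of the 150 shared), 359 with equal totals (64 shared), 727 with a steadiness limit of 0.25 (49 shared), 1943 with a limit of 1 (63 shared), 2332 with a minimum mean of 1 RPKM (118 shared) and 2228 without bolting replicate 1 and jointing replicate 3 together (105 shared), the last chosen after seeing the data. With a library left out, the counts called lower ran from 581 to 783, called higher from 268 to 331, meeting the rule from 1390 to 1936 (112 to 139 of the 150 shared), and the median difference from -1.47 to -1.32. Of 285 alternatives for the 15 named unigenes, 269 kept direction and call and 16 lost the call, all for PB.59102.5 and the 4 unigenes next to the limit. With the replicate block 693 unigenes were called lower and 297 higher. Whether equal replicate numbers pair the libraries is not known. The deviations from phase means had a correlation over 0.1 in 7 of 18 pairs with equal numbers, and the values ran from -0.63 to 0.46. For seedling and florescence they were 0.37, 0.25 and 0.28 in replicates 1, 2 and 3. Pairs with unequal numbers were not computed for comparison. Counts of other unigenes with a member's PB number were not run. The number of reads behind a single value is unknown, which limits the values under 1 RPKM.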

Other observations

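Of the unigenes with a mean of 5 to 1000 RPKM, 527 were called lower at florescence against all 3 earlier phases (limma), the 150 included, and 36.2% of them were in the highest of 10 equal ranges of the PB number. Without the 150, the share was 35.8% of the 377 other called unigenes, whereas it was 18.1% of the 1326 other unigenes that met every condition of the rule. Of the 190 called higher against all 3 phases the share was 27.4%, and over all unigenes with such a mean it was 19%. The median difference of florescence from the earlier phases on the log2(scaled RPKM + 1) scale was -0.14 for unigenes of this range and between -0.04 and 0.04 in the other 9 ranges.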
